A study of Mus musculus with 3 samples.

Results

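Mitosis and spindle genes were examined in single cells of 3 populations on the path from multipotent progenitors to B cells. The set holds 47 genes, chosen by symbol for their known work in cell division, with earlier results of these libraries known. All 47 were found among the 27998 genes of the count tables, and all 47 had 10 or more counts over the 3 libraries, as had 12361 genes in all. The counts are of unique molecular identifiers (UMIs, one for each captured transcript), read with a droplet chemistry that captures the 3′ end. The cells were sorted by surface markers from C57BL/6J bone marrow. LMPP, the lymphoid-primed multipotent progenitors, carried cKit, Sca1 and Flt3 and lacked IL7Ra and B220. CLP, the common lymphoid progenitors, carried cKit, Sca1 and IL7Ra, with Flt3 present or low, and lacked B220. Pro-B cells, the first stage committed to the B lineage, carried cKit, IL7Ra and B220 and lacked Sca1 and Flt3. All 3 populations were thus sorted as cKit+. No genetic change or treatment is labelled for these cells, and the sources used here give neither the age of the mice nor the number pooled.

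A cell that enters mitosis condenses its chromosomes, builds a bipolar spindle of microtubules and attaches each chromosome to it at the kinetochore. Cyclin B with Cdk1 drives entry, the Aurora and Polo kinases organise the spindle, and the spindle checkpoint holds the anaphase promoting complex in check until every kinetochore is attached. That complex then marks cyclin B and other proteins for destruction, the chromosomes part, and a central spindle and a contractile ring divide the cell. Most of these genes are transcribed late in the cell cycle, so their transcripts mark cells that are close to or in division. Pro-B cells are known to divide in response to interleukin 7 and to stop dividing when they rearrange their receptor genes.

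The filters left 579 cells with 4014657 UMIs in LMPP, 948 with 5967352 in CLP, and 1106 with 7367156 in pro-B. Each population is 1 library, so no test was made, no p-value is given, and a difference between droplet runs and a difference between populations cannot be told apart. Intervals are at 95% and hold only the error of counting. Levels are UMIs of the kept cells, scaled to 1000000 UMIs of the library (counts per 1000000, CPM), with no term for gene length. Il7r and the B lineage factor Pax5 followed the labels. Il7r had 3.74 CPM in LMPP, 141 CPM in CLP and 104 CPM in pro-B. Pax5 had 0 CPM in LMPP, 17.3 CPM in CLP and 103 CPM in pro-B. Ptprc encodes CD45, of which B220 is only 1 form. Counts from the 3′ end do not tell these forms apart, so Ptprc cannot check the B220 gate. Ptprc had 59.3 CPM in LMPP, 80.3 CPM in CLP and 33.4 CPM in pro-B, the only B220+ gate. Kit, the gene of cKit, was at 85.2 CPM in LMPP, 28.3 CPM in CLP and 7.47 CPM in pro-B, where every gate was cKit+. Ribosomal protein genes took between 43.5% (LMPP) and 29.6% (pro-B) of UMIs, and scaling without them and without mitochondrial genes moves every log2 ratio of pro-B over CLP by −0.31.

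Transcripts of the 47 genes were scarce in both progenitors and abundant in pro-B cells. Their summed level was 525 CPM in LMPP (503 to 548), 753 CPM in CLP (731 to 775) and 7064 CPM in pro-B (7004 to 7125). The sum was 9.39-fold higher in pro-B over CLP (9.10 to 9.68) and 1.43-fold higher in CLP over LMPP (1.36 to 1.51). Per gene, levels ran between 0.498 and 70.5 CPM in LMPP with a median of 6.23, between 1.01 and 86.6 CPM in CLP with a median of 9.72, and between 15.6 and 611 CPM in pro-B with a median of 102. The 95% interval of the pro-B level lay above that of the CLP level for 47 of 47 genes, a count not made over all measured genes. The pro-B level exceeded the CLP level 2-fold or more for 46 of the 47, where 13% of the 12361 measured genes did, and 4-fold or more for 44, where 4.58% did. Among the 8801 genes with 100 or more UMIs, which is where all 47 fall, those shares were 12.5% and 3.82%. At least 8-fold higher were 33, and at least 16-fold higher were 10, folds for which no share over all genes was taken. The median log2 ratio was 3.39, beside −0.10 over all measured genes. The genes below 4-fold were the kinesin gene Kif23 and the condensin genes Smc2 and Ncapd2. Over LMPP, with the same pro-B library, 46 of the 47 stood at least 4-fold higher, beside 5.43% of measured genes. The plot of levels by gene shows this gap, which was narrowest for Kif23.

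**Figure D1:**
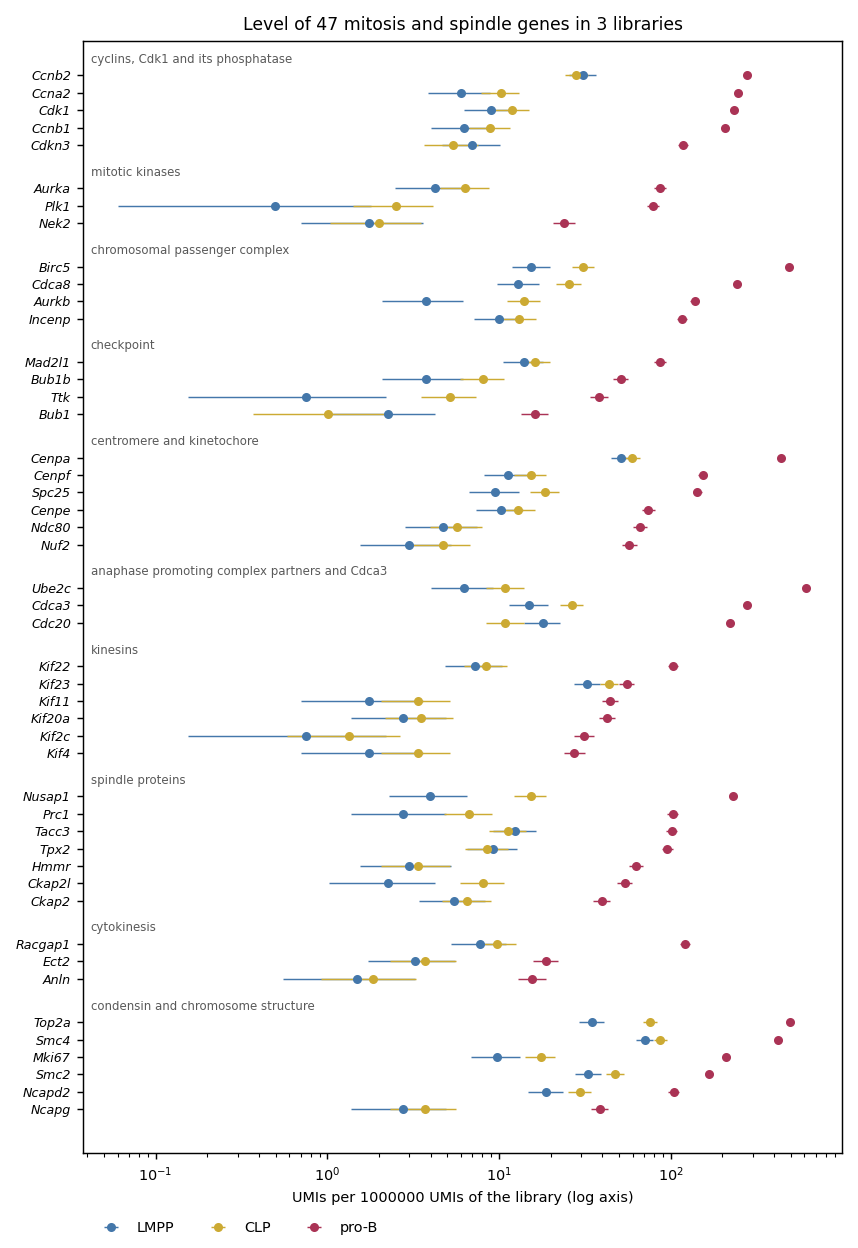
Level of each of the 47 mitosis and spindle genes in the LMPP, CLP and pro-B libraries, in UMIs per 1000000 UMIs on a log axis, with 95% counting intervals as bars, grouped by role. Pro-B levels lie between 15.6 and 611 CPM, while Kif23 is the gene whose points lie closest together.

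Genes that peak at mitosis are known to share promoter elements: CCAAT boxes, bound by the factor NF-Y, and the cell cycle homology region, through which the DREAM and MuvB complexes and their partners B-Myb and FoxM1 act. The promoters of 5 members with high pro-B over CLP ratios are shown, the highest among members with 100 or more pro-B UMIs and a RefSeq start within 100 bases of the GENCODE gene start. Kif2c, which ranks among them by ratio, is left out because its RefSeq start lies 3867 bases away. Its window holds a homology match at −103 and no CCAAT box. They are RefSeq sequences of GRCm38.p6, 5′ to 3′ on the gene's own strand, 250 bases before to 50 after the start site. Capitals mark matches to CCAAT or ATTGG (the CCAAT box on either strand) and to TTTGAA, its reverse complement TTCAAA, or the palindrome TTCGAA (the homology region). The windows are Ube2c at chr2:164769679-164769978 on the plus strand, Plk1 at chr7:122159185-122159484 on the plus strand, Ccnb1 at chr13:100786437-100786736 on the minus strand, Cdkn3 at chr14:46760291-46760590 on the plus strand, and Cdc20 at chr4:118437294-118437593 on the minus strand.
Ube2c: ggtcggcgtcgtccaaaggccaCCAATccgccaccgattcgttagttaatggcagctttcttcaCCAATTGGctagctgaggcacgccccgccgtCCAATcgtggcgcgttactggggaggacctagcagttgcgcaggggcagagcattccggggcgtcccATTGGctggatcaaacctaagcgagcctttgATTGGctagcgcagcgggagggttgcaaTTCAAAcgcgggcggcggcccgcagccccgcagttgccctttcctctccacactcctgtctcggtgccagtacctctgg
Plk1: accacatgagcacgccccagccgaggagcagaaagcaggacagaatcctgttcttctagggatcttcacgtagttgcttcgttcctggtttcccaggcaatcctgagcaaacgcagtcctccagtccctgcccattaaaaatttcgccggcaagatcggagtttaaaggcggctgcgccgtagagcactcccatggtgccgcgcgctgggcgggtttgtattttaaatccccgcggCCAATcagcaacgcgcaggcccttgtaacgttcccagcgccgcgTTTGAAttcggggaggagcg
Ccnb1: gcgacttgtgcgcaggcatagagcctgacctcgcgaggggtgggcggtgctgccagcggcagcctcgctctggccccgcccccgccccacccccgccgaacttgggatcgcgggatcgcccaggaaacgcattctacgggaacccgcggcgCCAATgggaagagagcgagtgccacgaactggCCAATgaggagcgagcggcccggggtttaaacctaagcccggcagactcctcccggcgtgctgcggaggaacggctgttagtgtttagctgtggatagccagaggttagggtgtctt
Cdkn3: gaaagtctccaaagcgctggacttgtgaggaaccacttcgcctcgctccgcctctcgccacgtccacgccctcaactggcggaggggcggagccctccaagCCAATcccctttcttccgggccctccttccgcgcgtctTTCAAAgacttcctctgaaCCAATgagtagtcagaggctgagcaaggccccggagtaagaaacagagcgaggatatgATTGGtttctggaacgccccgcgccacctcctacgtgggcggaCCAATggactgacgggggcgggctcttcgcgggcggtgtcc
Cdc20: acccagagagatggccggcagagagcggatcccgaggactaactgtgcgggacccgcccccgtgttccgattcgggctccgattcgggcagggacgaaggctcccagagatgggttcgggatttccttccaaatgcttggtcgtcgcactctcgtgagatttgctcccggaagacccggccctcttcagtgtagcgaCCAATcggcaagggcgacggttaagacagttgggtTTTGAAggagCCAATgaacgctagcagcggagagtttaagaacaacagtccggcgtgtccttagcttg
In Ube2c the homology match begins at −29 from the start site, with CCAAT boxes at −228, −186, −155, −88 and −57 and a further, overlapping one at −183. In Cdc20 it begins at −18, between CCAAT boxes at −53 and −8, and in Plk1 at 31 past the start, after a CCAAT box at −14. Cdkn3 has its match at −111 and CCAAT boxes at −149, −92, −34 and 10. Ccnb1 has no homology match of these letters in this window and CCAAT boxes at −99 and −67.

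The same letters were counted over every member with a promoter in the RefSeq table, 41 of the 47 genes with 43 windows of 300 bases. The homology letters stood in 35 of 43 member windows (81.4%), beside 19.2% of all 32851 windows and 14.3% of the 8653 windows of genes with 100 or more UMIs. A CCAAT box stood in 35 (81.4%), beside 37.4% and 38.1%. Both stood in 32 (74.4%), beside 7.52% and 5.92%, and 24 windows (55.8%) held 2 or more CCAAT boxes, beside 11.7% and 14.9%. An E2F motif in the spellings TTTGGCGC or TTTGCCGC, and likewise TTTCGCGC or TTTCCCGC, on either strand, stood in 3 (6.98%), those of Cdk1, Ncapd2 and Ncapg, beside 2.26% and 4.44%. Birc5, Nusap1, Tacc3, Mad2l1 and Nuf2 had none of these letters in their windows. A list of 50 further kinetochore and spindle genes had 46 windows. There the homology letters stood in 58.7%, a CCAAT box in 67.4% and both in 43.5%. In that list 41.3% of windows held 2 or more CCAAT boxes and 15.2% an E2F motif. A match of letters is not a measured binding site. Ccna2, Aurkb, Tpx2, Kif20a, Incenp and Smc4 were not matched.

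Among the cyclins and their kinase, every gene was more than 8-fold higher in pro-B. Ccna2, cyclin A, which acts in replication and in the entry to mitosis, stood at 5.98 CPM in LMPP, 10.2 CPM in CLP and 247 CPM in pro-B, a log2 ratio of pro-B over CLP of 4.60 (4.23 to 4.99). Ccnb1, the main mitotic cyclin, stood at 6.23 CPM in LMPP, 8.88 CPM in CLP and 208 CPM in pro-B, a log2 ratio of 4.55 (4.15 to 4.97). Cdk1, the kinase both bind, stood at 8.97 CPM in LMPP, 11.9 CPM in CLP and 232 CPM in pro-B, a log2 ratio of 4.29 (3.94 to 4.65). Cdkn3, a phosphatase that removes an activating phosphate from cyclin dependent kinases, had 6.97 CPM in LMPP, 5.36 CPM in CLP and 118 CPM in pro-B, with a log2 ratio of 4.46 (3.95 to 5.02). The second B cyclin, Ccnb2, stood at 30.9 CPM in LMPP, 28.2 CPM in CLP and 278 CPM in pro-B, a log2 ratio of 3.30 (3.07 to 3.54). Counted against each other, there were 4.96 Ccnb2 UMIs per Ccnb1 UMI in LMPP (3.21 to 7.96), 3.17 in CLP (2.32 to 4.40) and 1.34 in pro-B (1.25 to 1.43), a pair chosen after its values were seen. Of the 5 genes, 4 had an interval of CLP over LMPP that included no difference.

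The mitotic kinases were barely detected in the progenitors. Plk1, the Polo kinase of spindle poles and kinetochores, had 2 UMIs in LMPP and 15 in CLP, against 583 in pro-B, or 0.498 CPM in LMPP, 2.51 CPM in CLP and 79.1 CPM in pro-B. Its pro-B over CLP log2 ratio was 4.98 (4.24 to 5.82). Aurka, the Aurora kinase of the spindle poles, stood at 4.23 CPM in LMPP, 6.37 CPM in CLP and 86.5 CPM in pro-B, with a log2 ratio of 3.76 (3.29 to 4.28), and Nek2, which acts in centrosome separation, at 1.74 CPM in LMPP, 2.01 CPM in CLP and 23.9 CPM in pro-B, with a log2 ratio of 3.57 (2.73 to 4.55).

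The chromosomal passenger complex, which corrects faulty attachments and then moves to the central spindle, had a summed pro-B over CLP ratio of 11.8 (10.8 to 13.0), at 42.1 CPM in LMPP, 83.3 CPM in CLP and 986 CPM in pro-B. Birc5, its survivin subunit, had 15.4 CPM in LMPP, 30.8 CPM in CLP and 489 CPM in pro-B, and Cdca8, the borealin subunit, 13.0 CPM in LMPP, 25.5 CPM in CLP and 243 CPM in pro-B. Its kinase Aurkb had 3.74 CPM in LMPP, 13.9 CPM in CLP and 138 CPM in pro-B, and its scaffold Incenp 9.96 CPM in LMPP, 13.1 CPM in CLP and 116 CPM in pro-B. Pro-B over CLP log2 ratios of the 4 ran between 3.15 for Incenp and 3.99 for Birc5. Among the roles this one had the highest summed ratio of CLP over LMPP, 1.98-fold (1.66 to 2.37), with an interval that overlaps those of other roles.

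The spindle checkpoint genes had a lower median log2 ratio of pro-B over CLP, 2.77, than the kinases at 3.76. Mad2l1, the Mad2 protein that inhibits Cdc20, stood at 13.9 CPM in LMPP, 16.3 CPM in CLP and 86.2 CPM in pro-B, a log2 ratio of 2.41 (2.10 to 2.73). Bub1b, the BubR1 subunit of the same inhibitor, had 3.74 CPM in LMPP, 8.04 CPM in CLP and 51.2 CPM in pro-B, with a log2 ratio of 2.67 (2.23 to 3.13). Ttk, the kinase Mps1 that starts checkpoint signalling, had 0.747 CPM in LMPP, 5.19 CPM in CLP and 38.1 CPM in pro-B, with a log2 ratio of 2.88 (2.34 to 3.46), on 3 UMIs in LMPP. Bub1, a kinetochore kinase, had 2.24 CPM in LMPP, 1.01 CPM in CLP and 16.2 CPM in pro-B, with a log2 ratio of 4.01 (2.84 to 5.48), on 6 UMIs in CLP.

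Centromere and kinetochore genes had a summed pro-B over CLP ratio of 7.99 (7.39 to 8.65). Cenpa, the histone variant that marks the centromere, had the highest UMI count of the 6 genes in every library, at 51.6 CPM in LMPP, 59.3 CPM in CLP and 436 CPM in pro-B, and its log2 ratio of 2.88 (2.72 to 3.04) lay below the group's median of 3.14. Of the Ndc80 complex, which grips the microtubule, Ndc80 had 4.73 CPM in LMPP, 5.70 CPM in CLP and 66.1 CPM in pro-B, Nuf2 2.99 CPM in LMPP, 4.69 CPM in CLP and 57.4 CPM in pro-B, and Spc25 9.47 CPM in LMPP, 18.4 CPM in CLP and 143 CPM in pro-B. The kinetochore motor Cenpe had 10.2 CPM in LMPP, 12.9 CPM in CLP and 74.0 CPM in pro-B, the lowest ratio of the group at 2.52 (2.17 to 2.88), and Cenpf, a kinetochore protein that builds up late in the cycle, had 11.2 CPM in LMPP, 15.2 CPM in CLP and 154 CPM in pro-B.

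The partners of the anaphase promoting complex held the highest ratio of all. Ube2c, the enzyme that passes ubiquitin to its substrates, stood at 6.23 CPM in LMPP (25 UMIs in 13 cells), 10.9 in CLP (65 UMIs in 29 cells) and 611 in pro-B (4499 UMIs in 612 cells). Its log2 ratio of pro-B over CLP was 5.81 (5.46 to 6.19), the highest of the 47. Cdc20, the activator that the checkpoint holds, stood at 17.9 CPM in LMPP, 10.9 CPM in CLP and 223 CPM in pro-B, a log2 ratio of 4.35 (4.00 to 4.73), and it was one of 6 genes lower in CLP than in LMPP, by a log2 ratio of −0.72 (−1.23 to −0.22). Cdca3, a cell cycle gene grouped with them, had 14.9 CPM in LMPP, 26.5 CPM in CLP and 276 CPM in pro-B, with a log2 ratio of 3.38 (3.15 to 3.63). In UMIs, Ube2c stood to Cdc20 as 0.347 to 1 in LMPP (0.211 to 0.554), 1 to 1 in CLP (0.698 to 1.43) and 2.74 to 1 in pro-B (2.59 to 2.90), a pair also chosen after its values were seen. Ube2c and Cdc20 each overlap a neighbouring gene on the other strand in the annotation, and the sources used here do not say whether the counting used strand.

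**Figure D2:**
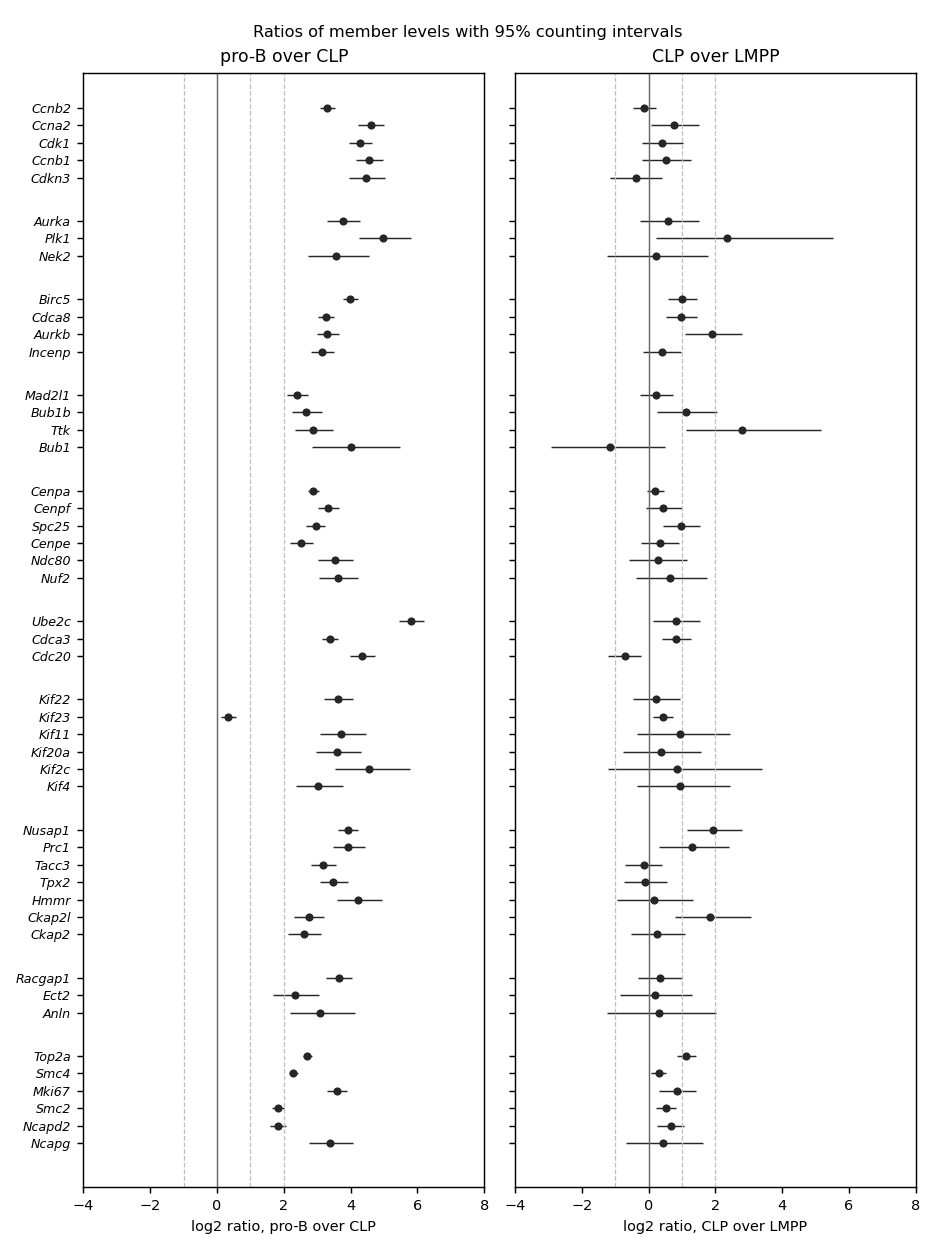
log2 ratio of each gene's level, pro-B over CLP on the left and CLP over LMPP on the right, with exact 95% counting intervals, in the order of the plot of levels. Dashed lines mark 2-fold and 4-fold. On the left 44 of 47 genes lie past 4-fold, and on the right 27 intervals include no difference.

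The kinesins, motors that slide, crosslink or take apart microtubules, included both a gene among the highest ratios and the lowest ratio of all. Kif2c, which depolymerises microtubules at the kinetochore, had 3 UMIs in LMPP, 8 UMIs in CLP and 231 UMIs in pro-B, a log2 ratio of pro-B over CLP of 4.55 (3.55 to 5.78). Kif11, the motor that drives spindle poles apart, had 1.74 CPM in LMPP, 3.35 CPM in CLP and 44.3 CPM in pro-B (log2 ratio 3.72), and Kif22, which moves chromosome arms, 7.22 CPM in LMPP, 8.38 CPM in CLP and 103 CPM in pro-B (3.62). Kif20a, a partner of the passenger complex in cytokinesis, had 2.74 CPM in LMPP, 3.52 CPM in CLP and 42.6 CPM in pro-B (3.60), and the chromosome kinesin Kif4 1.74 CPM in LMPP, 3.35 CPM in CLP and 27.4 CPM in pro-B (3.03).

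Kif23, the motor of the central spindle, stood apart from the other 46. Its levels were 32.6 CPM in LMPP, 43.9 CPM in CLP and 55.4 CPM in pro-B, and its log2 ratio of pro-B over CLP was 0.33 (0.11 to 0.56). Its partner in the centralspindlin complex, Racgap1, stood at 7.72 CPM in LMPP, 9.72 CPM in CLP and 121 CPM in pro-B, so there were 4.23 Kif23 UMIs per Racgap1 UMI in LMPP (2.84 to 6.47), 4.52 in CLP (3.39 to 6.11) and 0.457 in pro-B (0.406 to 0.515). In the progenitors the Kif23 counts lay in cells with few other mitotic transcripts. With every cell thinned to 2000 UMIs, 88.6% of Kif23 UMIs in LMPP and 88.0% in CLP lay in cells with 0 to 2 UMIs of the other 46 genes, while 2.70% did in pro-B. Among such cells Kif23 was seen in 37 of 526 LMPP cells (7.03%), 62 of 804 CLP cells (7.71%) and 2 of 322 pro-B cells (0.621%, 0.0753 to 2.23). Kif23 lies at chr9:61915905-61946774 on the minus strand (GRCm38, GENCODE M21), and the next gene past its 3′ end, 1363 bases away on the same strand, is the ribosomal protein gene Rplp1. Rplp1 had 5883 CPM in LMPP, 4910 CPM in CLP and 3661 CPM in pro-B, and its part in the Kif23 counts was not tested. Without Kif23, an alternative chosen after its values were seen, the median log2 ratio of pro-B over CLP was 3.43.

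Spindle proteins stood 11.5-fold higher in pro-B as a sum (10.3 to 12.8). Nusap1, which bundles spindle microtubules, had 3.99 CPM in LMPP, 15.2 CPM in CLP and 230 CPM in pro-B, a log2 ratio of 3.91 (3.61 to 4.23). Prc1, which bundles the central spindle, had 2.74 CPM in LMPP, 6.70 CPM in CLP and 102 CPM in pro-B, with a log2 ratio of 3.93 (3.47 to 4.43), and Hmmr, a spindle pole protein, 2.99 CPM in LMPP, 3.35 CPM in CLP and 62.6 CPM in pro-B, with a log2 ratio of 4.22 (3.58 to 4.95). Tpx2, which activates Aurora A, had 9.22 CPM in LMPP, 8.55 CPM in CLP and 95.4 CPM in pro-B, and Tacc3, an Aurora A substrate that stabilises spindle fibres, 12.5 CPM in LMPP, 11.2 CPM in CLP and 101 CPM in pro-B. Ckap2l and Ckap2, microtubule associated spindle proteins, had log2 ratios of 2.74 and 2.60. In cytokinesis, the exchange factor Ect2 that activates RhoA at the cell equator had 3.24 CPM in LMPP, 3.69 CPM in CLP and 18.7 CPM in pro-B, a log2 ratio of 2.35 (1.69 to 3.07). The contractile ring scaffold Anln had 1.49 CPM in LMPP, 1.84 CPM in CLP and 15.6 CPM in pro-B, the lowest level of the 47 in pro-B, with a log2 ratio of 3.08 (2.19 to 4.12).

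The genes of condensin and chromosome structure had the lowest median log2 ratio of pro-B over CLP among the roles, 2.49. Their summed level was the highest of the roles in all 3 libraries, at 169 CPM in LMPP, 260.1 CPM in CLP and 1432 CPM in pro-B. Smc2 and Smc4 are the core ATPases of condensin, which compacts chromosomes. Smc4 had 70.5 CPM in LMPP, 86.6 CPM in CLP and 420.0 CPM in pro-B, with a log2 ratio of 2.28 (2.14 to 2.41), and Smc2 33.1 CPM in LMPP, 47.3 CPM in CLP and 167 CPM in pro-B, with a log2 ratio of 1.82 (1.63 to 2.01). Of the subunits particular to condensin I, Ncapd2 had 18.7 CPM in LMPP, 29.5 CPM in CLP and 104 CPM in pro-B, with a log2 ratio of 1.82 (1.58 to 2.06), while Ncapg had 2.74 CPM in LMPP, 3.69 CPM in CLP and 38.5 CPM in pro-B, with a log2 ratio of 3.39 (2.76 to 4.08). Smc4 and Ncapd2 were also spread over cells with few other mitotic transcripts: in thinned CLP cells 75.7% and 78.0% of their UMIs lay in cells with 0 to 2 UMIs of the other members, beside a median of 42.9% over the 47 genes. The checkpoint gene Mad2l1 had 76% there. The next gene past the Ncapd2 3′ end, 1540 bases away on the same strand, is Gapdh. Gapdh had 698 CPM in LMPP, 569 CPM in CLP and 1204 CPM in pro-B, and its part in the Ncapd2 counts was not tested. Top2a, the topoisomerase that untangles sister chromosomes, had 34.6 CPM in LMPP, 75.6 CPM in CLP and 492 CPM in pro-B, and Mki67, which coats mitotic chromosomes, 9.71 CPM in LMPP, 17.4 CPM in CLP and 210.4 CPM in pro-B, a log2 ratio of 3.59 (3.31 to 3.89).

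Between LMPP and CLP the ratios were smaller than those of pro-B over CLP. Of the 47, 8 (17.0%) stood at least 2-fold higher in CLP, beside 7.94% of measured genes and 4.85% of those with 100 or more UMIs, and 2 (4.26%) at least 4-fold higher, beside 2.39% and 1.22%. Bub1 alone stood 2-fold lower, on 6 CLP and 9 LMPP UMIs, beside 7.05% of genes. For 27 of the 47 the interval of the ratio included no difference, and the median log2 ratio was 0.44. The 8 higher genes were Ttk (log2 2.80, 1.12 to 5.15), Plk1 (2.34, 0.23 to 5.51), Nusap1 (1.94, 1.16 to 2.80), Aurkb (1.90, 1.09 to 2.80), Ckap2l (1.84, 0.80 to 3.06), Prc1 (1.29, 0.30 to 2.40), Top2a (1.13, 0.85 to 1.41) and Bub1b (1.11, 0.25 to 2.05). The CLP value rests in part on 1 cluster of 107 cells, 11.3% of CLP, that carried plasmacytoid dendritic cell markers such as Siglech and Cd7. It held 36.0% of the CLP member UMIs at 2030 CPM, and Tk1, Rrm2 and Top2a were among its leading genes. This cluster was formed with the members among its genes, so leaving it out also takes away cells grouped in part by high member counts. Without this cluster and its LMPP counterpart of 22 cells, the median log2 ratio of CLP over LMPP was −0.011, 2 of 47 genes stood 2-fold or more and 0 stood 4-fold or more higher in CLP, and the CLP sum was 556 CPM against 519 in LMPP. In an alternative chosen after these values were seen, the cells were clustered without the members and the further lists of cell cycle genes. The plasmacytoid dendritic-like cluster then held 81 CLP cells at 2203 CPM and 38 LMPP cells at 1121 CPM, and 17 CLP cells were NK or innate lymphoid-like. Without all of these cells the median log2 ratio of CLP over LMPP was 0.28, 7 genes stood 2-fold or more and 3 stood 4-fold or more higher in CLP, and the CLP sum was 593 CPM against 471 in LMPP. The turn to −0.011 was not seen with these clusters. The 7 plasmacytoid dendritic markers summed to 580 CPM in LMPP, 1487 CPM in CLP and 364 CPM in pro-B, with 7, 7 and 5 of them detected. Pro-B over CLP had a median log2 ratio of 4.04 without the plasmacytoid dendritic-like clusters of the first clustering. It was 3.90 without the cells left out under the clustering that lacked cell cycle genes.

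How the pro-B level was spread over cells was read after thinning each cell to 2000 UMIs, which kept 573 LMPP, 908 CLP and 1070 pro-B cells and left out 6, 40 and 36. At least 3 member UMIs were found in 8.55% of LMPP cells (6.39 to 11.1), 12.1% of CLP cells (10.1 to 14.4) and 69.9% of pro-B cells (67.1 to 72.6), beside 35.9% of LMPP, 37.1% of CLP and 81.4% of pro-B cells without thinning. At least 10 were found in 8 LMPP cells (1.40%), 21 CLP cells (2.31%) and 408 pro-B cells (38.1%). The mean per cell was 0.956 UMIs in LMPP, 1.25 UMIs in CLP and 11.6 UMIs in pro-B, and the highest cell held 15 UMIs in LMPP, 32 UMIs in CLP and 64 UMIs in pro-B. The pro-B library had both more cells with mitotic transcripts and more transcripts in those cells: cells with at least 3 held a mean of 5.63 UMIs in LMPP, 6.41 UMIs in CLP and 16.1 UMIs in pro-B. The 408 pro-B cells with 10 or more held 83.8% of the member UMIs of their library. Near the threshold, 84 LMPP, 137 CLP and 316 pro-B cells held 2 to 4 UMIs. Without the plasmacytoid dendritic-like clusters, 7.11% of CLP cells (5.43 to 9.11) and 8.71% of LMPP cells (6.49 to 11.4) held 3 or more, with CLP no longer above LMPP. With the clusters formed without cell cycle genes left out, 8.00% of CLP cells and 6.17% of LMPP cells did. In both settings, as over all cells, the intervals of CLP and LMPP overlap. The barcodes left out by the filters had member levels of 407 CPM in LMPP (20 barcodes), 1017 in CLP (31) and 9457 in pro-B (17).

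**Figure D3:**
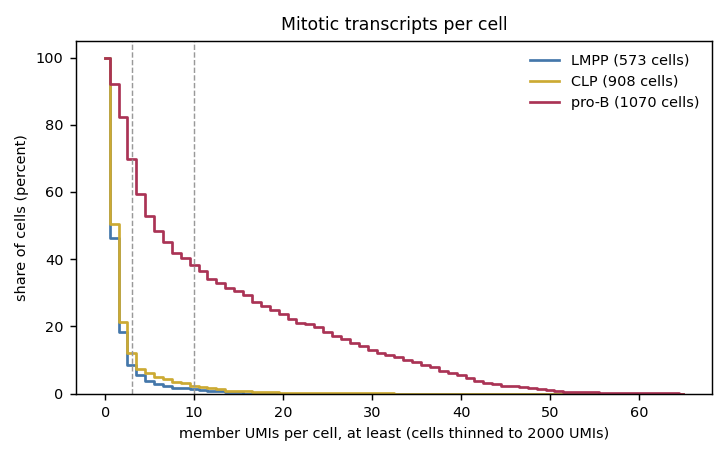
Share of cells, in percent, that hold at least a given number of UMIs of the 47 genes, with every cell thinned to 2000 UMIs. Dashed lines stand at 3 and 10 UMIs, where the curves read 8.55%, 12.1% and 69.9%, and 1.40%, 2.31% and 38.1%, for LMPP, CLP and pro-B.

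The rarity of the transcripts in the progenitors also showed in how few cells carried a gene's counts. More than 50% of a gene's UMIs lay in 5 cells for 18 of the 47 genes in LMPP, for 4 in CLP and for 0 in pro-B. All UMIs of Plk1, Ttk and Kif2c in LMPP lay in 2, 3 and 3 cells, so their ratios rest on those few. A small cluster in each progenitor library was led by members: 40 LMPP cells (6.91%) held 38.0% of the member UMIs with Ccnb2, Cdca3 and Cdc20 in the lead, and 31 CLP cells (3.27%) held 21.8% with Ccnb2, Ccnb1 and Cenpa in the lead. In pro-B a larger cluster of 288 cells (26.0%) held 69.6%, with Tuba1c, which is no member, in the lead and Ube2c and Ccnb1 among its leading genes. These clusters were formed with the members among their genes, so their content is a description.

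Within pro-B, each gene was found more often beside the others. No population here is known to lack dividing cells, so cells with 0 to 2 UMIs of the other members served as the comparison. For 47 of 47 genes the share of cells with the gene was higher among pro-B cells with 10 or more UMIs of the other members, with intervals apart, and the median share was 28.4% among those cells against 2.77% among the cells with 0 to 2. Other genes were read by a different measure, the ratio of levels. Of the 2810 genes of no member with 100 or more UMIs in thinned pro-B cells, 8.9% had a level at least 2-fold higher in cells with 10 or more member UMIs than in cells with 0 to 2. The share of cells holding each of them was not compared, so the 47 of 47 has no like background. Birc5 was seen in 79.3% against 17.0%, Top2a in 74.2% against 10.2%, and Ube2c in 69.3% of 398 cells against 15.7% of 351. Plk1 was seen in 25.1% against 0.926%, Nusap1 in 54.1% against 2.16%, and Kif11 in 13.0% of 407 against 0 of 322, which allows up to 1.14%. Smc4 and Bub1b were the least restricted, with 11.5% and 19.4% of their pro-B UMIs in cells with 0 to 2, beside a median of 4.86%. Depth and member content moved together: before thinning the median pro-B cell held 3242, 3240, 5694.5 and 8515 UMIs in the ranges of 0, 1 to 2, 3 to 9 and 10 or more member UMIs. The shares above are after thinning, and what part depth has in them was not tested.

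Members also differed in how much replication they kept company with. A list of 28 replication and S phase genes averaged 6.69 UMIs over all thinned pro-B cells. It averaged 8.58 UMIs in those with 10 or more member UMIs and 2.95 in those with 0 to 2. Cells positive for Top2a averaged 9.56 UMIs of the list, those for Ttk 9.50, for Ncapd2 9.48, for Spc25 9.35 and for Kif11 9.08. At the other end stood Ckap2 with 5.41, Ccnb1 with 6.21, Hmmr with 6.23, Cdc20 with 6.39, Cenpa with 6.43, Ube2c with 6.46 and Cdkn3 with 6.49. The number of other member UMIs did not set these ends apart: at the low end it ran between 19.4 for Cenpa and 28.5 for Hmmr, and at the high end between 18.2 for Top2a and 25.2 for Ttk. A gene's own UMIs are left out of that mean, which lowers it for the abundant genes, and the positive cells of different genes are in part the same cells, so no test was made. Some of the S phase means rest on few positive cells, 54 for Ttk, 63 for Kif11 and 66 for Ckap2, and no spread was taken.

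**Figure D4:**
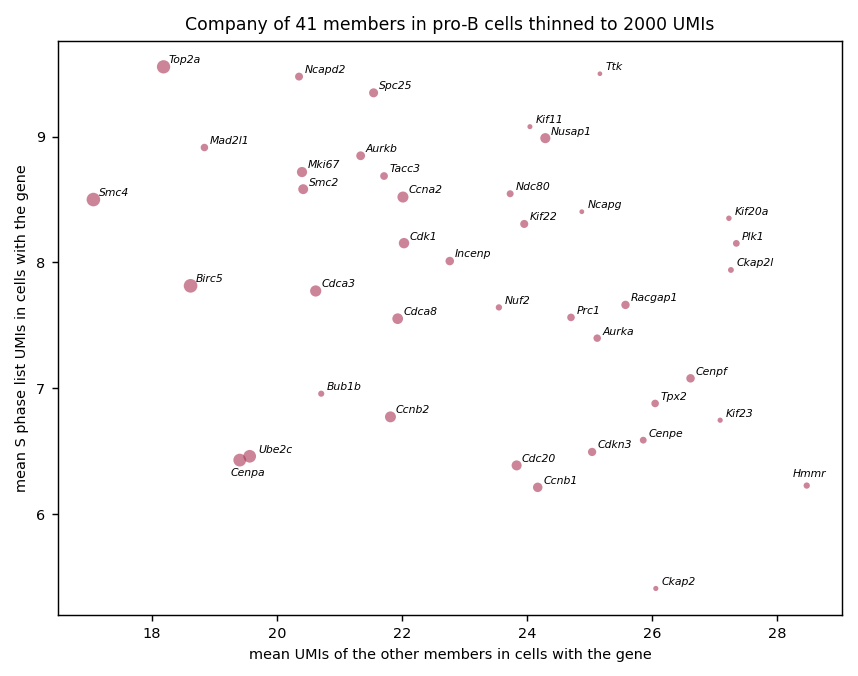
Mean UMIs of the other members (x) and of the 28 S phase genes (y) in thinned pro-B cells that hold each gene, for the 41 members with 50 or more such cells. Point size follows the number of cells. Top2a, Ttk and Ncapd2 lie high, and Ckap2, Ccnb1 and Hmmr low.

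Few differences in makeup could be seen between cells rich in mitotic transcripts of pro-B and of CLP. These cells are a range of counts and not a cell type. Their median count of S phase list UMIs was 8 in pro-B and 6 in CLP. In thinned cells with 10 or more member UMIs, 408 in pro-B and 21 in CLP, the intervals of the share of member UMIs taken by each gene overlapped for 45 of 47 genes. The exceptions were Cenpe, at 1.09% of 10411 member UMIs in pro-B (0.895 to 1.30) against 3.34% of 299 in CLP (1.62 to 6.06), and Spc25, at 2.01% in pro-B (1.75 to 2.30) against 4.35% in CLP (2.34 to 7.32). With 299 UMIs in the CLP cells, a gene taking a small share could differ severalfold within its interval.

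Within the pro-B library, B lineage transcripts took a smaller share of UMIs in the cells rich in mitotic transcripts. Levels here are per 1000000 UMIs of no member, in thinned cells with 10 or more against 0 to 2 member UMIs. Ebf1, a factor that specifies the B lineage, stood at 3389 against 6174 (log2 ratio −0.87, −0.94 to −0.79). Vpreb1 and Vpreb3, a surrogate light chain component and a related protein of pre-B cells, stood at 2787 against 6477 (−1.22) and 3333 against 5607 (−0.75), and Dntt, the enzyme that adds bases at receptor joints, at 1300 against 2080 (−0.68, −0.80 to −0.56). Rag1, part of the recombinase that cuts receptor genes, stood at 42.2 against 182 (−2.11, −2.70 to −1.54), and Ccnd3, a D cyclin needed for the expansion of B cell precursors, at 894 against 454 (0.98, 0.78 to 1.18), both named after their values were seen. Of 18 companion genes, 17 had 10 or more UMIs in these cells. Of these 17, 14 had an interval below and 1 an interval above no difference, a count not made over all genes. At least 2-fold lower were 4 (Igll1, Vpreb1, Vpreb2 and Rag1) and 2-fold higher 0, where 8.08% and 8.9% of the 2810 genes with 100 or more UMIs were. The share of UMIs and the number per cell differ here. Before thinning, cells rich in mitotic transcripts held more UMIs, and Vpreb1 averaged 23.0 UMIs per cell against 22.1, and Ebf1 27.2 against 21.1. Rag1 averaged 0.348 per cell against 0.683, and Vpreb2 1.78 against 2.40, each lower on both counts. Rag2, the other part of the recombinase, was lower as a share, at 80.7 against 158 (−0.97, −1.45 to −0.51). Per cell Rag2 averaged 0.588 against 0.540 and was not lower.

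**Figure D5:**
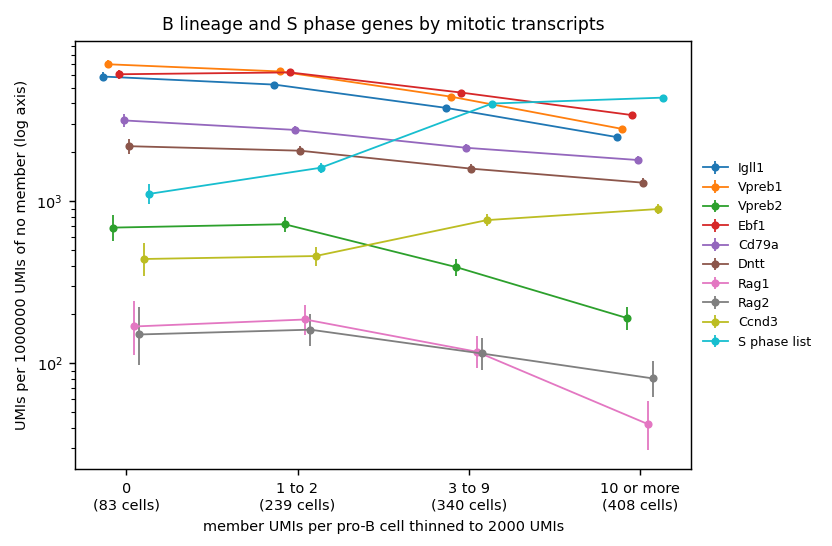
Levels of B lineage genes, Ccnd3 and the summed S phase list in thinned pro-B cells with 0, 1 to 2, 3 to 9 and 10 or more member UMIs, per 1000000 UMIs of no member on a log axis, with 95% counting intervals. Rag1 reads 42.2 and Ccnd3 894 in the last range.

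Ccnd3 followed mitotic transcripts in CLP too. Its level in thinned CLP cells was 203, 205, 479 and 743 per 1000000 in the ranges of 0, 1 to 2, 3 to 9 and 10 or more member UMIs, and in pro-B 440, 459, 764 and 894. Over whole libraries Ccnd3 had 126 CPM in LMPP, 261 CPM in CLP and 836 CPM in pro-B. The other D cyclins were lower in pro-B than in CLP, Ccnd2 at 362 CPM in LMPP, 408 CPM in CLP and 115 CPM in pro-B, and Ccnd1 at 23.4 CPM in LMPP, 13.9 CPM in CLP and 1.09 CPM in pro-B, and so was the growth regulator Myc at 115 CPM in LMPP, 134 CPM in CLP and 23.6 CPM in pro-B.

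In the wider machinery, pro-B over CLP ratios were lower than those of the 47 members, least so for kinetochore and spindle genes. For the counts below, 13% of the 12361 measured genes were 2-fold or more and 4.58% 4-fold or more higher in pro-B. Of 50 further kinetochore and spindle genes, the pro-B level exceeded the CLP level 2-fold or more for 46 and 4-fold or more for 32, with a median log2 ratio of 2.43, beside 3.39 for the members, and their sum was 4.51-fold higher (4.38 to 4.65). Those with the highest levels were Cks2 (log2 2.51), Cks1b (1.59), Bub3 (2.28) and Spc24 (2.91). Of 28 replication and S phase genes, 16 were 2-fold and 7 4-fold higher, with a median of 1.38, and their sum was 2.49-fold higher (2.43 to 2.54), beside 9.39-fold for the 47 mitotic genes. Of the S phase genes, Dut, Slbp, Pcna and Rfc2 had the highest levels, with log2 ratios of 1.56, 1.54, 1.99 and 0.27. Of 26 mitotic regulators and transcription factors, 12 were 2-fold and 8 4-fold higher, with a median of 0.50. Cdc25b, a phosphatase that activates Cdk1, had the highest ratio there, at 157 CPM in pro-B against 1.51 in CLP (log2 6.70, 5.77 to 7.83). Unlike the members it did not follow mitotic content within pro-B, at 206 in cells with 10 or more against 253 in cells with 0 to 2 member UMIs (log2 −0.30, −0.62 to 0.02). Fbxo5, the inhibitor of the anaphase promoting complex also known as Emi1, did, at 271 against 20.2 (3.74, 2.94 to 4.68), with 180 CPM in pro-B against 15.9 in CLP overall. Trp53 and E2f4, the other regulators of highest level, had log2 ratios of pro-B over CLP of 0.48 each.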

How the data were processed

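The deposited files hold whole-number UMI counts per gene and barcode, 1 matrix per population. Per the submitters' processing notes, the authors used Cell Ranger and the build mm10. The sources used here do not give its version, the annotation, the use of strand or how cells were called. A cell needed 500 genes or more, and no more than 10% of its UMIs from mitochondrial genes, of 599 LMPP, 979 CLP and 1123 pro-B barcodes. Libraries shared 3 (LMPP and CLP), 2 (CLP and pro-B) and 1 (LMPP and pro-B) barcode sequences. Scrublet called 25, 16 and 0 doublets, which were kept and left out in an alternative.

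Counts were summed over cells and scaled to CPM. At this depth 3 UMIs are 0.747 CPM (LMPP), 0.503 CPM (CLP) and 0.407 CPM (pro-B). Intervals are exact 95% intervals: Poisson for levels, conditional binomial for ratios of 2 counts, Clopper-Pearson for shares. Per-cell values use cells thinned without replacement to 2000 UMIs. Each library was clustered by Leiden at resolution 0.5 on 15 neighbours, 20 components and 2000 variable genes. Names came from marker lists, and the NK or innate lymphoid list named no cluster in this clustering. The members, gene lists and marker lists were chosen with earlier results of these data known. All 47 members are named or counted, together with the 4 genes of highest level from each further list and list genes 4-fold higher in CLP than in pro-B. Genes outside this rule are Rag1, Rag2, Ccnd3, Ccnd2, Igll1, Vpreb2, the neighbouring genes Rplp1 and Gapdh, and those that lead a cluster. They were chosen after their values were seen, except Pax5, Il7r, Kit and Ptprc, which were read beside the labels. Positions are from GENCODE M21, matched by Ensembl ID. Scanpy 1.11.5 with leidenalg 0.10.2 and igraph 0.11.9 did the clustering, SciPy 1.17.1 the intervals, and pandas 2.3.3 and NumPy 2.4.6 the sums, in Python 3.11.15, with anndata 0.12.19 and scikit-learn 1.9.0 beneath scanpy and matplotlib 3.10.9 for figures. The ratio steps were tested on simulated data.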

Additional observations from a re-analysis of the deposited data

How the results depend on the processing

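Of 150 recomputed values, 113 stayed within a set range, 36 moved past it, and 1 changed sign. For sums and shares the range was the counting interval, and for counts of genes a change of at most 1.5 times. For median log2 ratios it ran between the medians over genes of the single-gene bounds, which is no counting interval of the median. Pro-B sums and shares could not move where doublets or the dendritic-like and innate lymphoid-like clusters were left out, because no pro-B cell was among them. Scaled without mitochondrial and ribosomal genes, the summed levels were 976 (LMPP), 1368 (CLP) and 10343 (pro-B) per 1000000, and under median-of-ratios scaling the pro-B sum was 6888 CPM. Without the plasmacytoid dendritic-like clusters, the median log2 ratio was 4.04 for pro-B over CLP and, with its sign turned, −0.011 for CLP over LMPP. In that setting 2 genes were 2-fold and 0 were 4-fold higher in CLP than in LMPP, the CLP sum was 556 CPM, and the share of cells with 3 or more member UMIs was 7.11% in CLP and 8.71% in LMPP, the opposite order to the 12.1% and 8.55% of all cells. With such clusters formed without the listed cell cycle genes, chosen after seeing the data, the median was 0.28, the sums were 593 CPM in CLP and 471 in LMPP, and the shares 8.00% in CLP and 6.17% in LMPP. With every cell weighing the same, the sums were 475, 642 and 5625 CPM and 4 genes were 4-fold higher in CLP than in LMPP. With the whole interval past the fold, 3 were 2-fold and 0 were 4-fold higher there. Without Kif23 the sums were 493 CPM in LMPP and 709 in CLP. The share of cells with 3 or more member UMIs in LMPP, CLP and pro-B was 3.97%, 5.70% and 48.8% at 1000 UMIs per cell, 13.8%, 17.7% and 86.3% at 3000, and 35.9%, 37.1% and 81.4% without thinning. It was 18.3%, 21.1% and 82.2% when 2 UMIs counted, and 3.66%, 6.06% and 52.7% when 5 did. A minimum of 1 or of 50 UMIs kept all 47 genes. The shifts with scaling, thinning and threshold follow from how those settings are built; the cause of the others was not tested. No paired analysis was possible because each population has 1 library, and for the same reason no replicate could be left out. Depth limits the progenitors: 9 of the 47 genes had 10 or fewer UMIs in LMPP and 2 in CLP.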
